A study of Danio rerio with 6 samples.

Results

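Matrix metalloproteases, Adam and Adamts proteases and the Timp inhibitors were examined in sorted zebrafish cells. The members were all genes of the deposited table whose symbol begins with mmp, adam or timp followed by a number or a letter, apart from a pair of Adam genes that is not analysed here. This gave 46 of the 19722 listed genes. GFP-positive cells had been sorted at the 15-somite stage from Gt(endocard:egfp) embryos, the gene-trap line Gt(SAGFF27C); Tg(4xUAS:egfp) on a wild-type background (3 libraries), and from wild-type Tg(fli1a:egfp) embryos (3 libraries). Gt(endocard:egfp) embryos came from an outcross of homozygous fish and only strongly GFP-positive cells were kept, because cardiomyocytes of this line express GFP weakly. From time-lapse movies of somitogenesis, the paper also describes a few cells labelled by this line as likely myeloid. Whether such cells were among those sorted was not tested here. Tg(fli1a:egfp) embryos came from an outcross of heterozygous fish, and the sorted cells were primarily endothelium, endocardium included, and blood.

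The study set these lines against each other to ask whether endocardium differs from other endothelium. That question is not answered here for the protease genes. The values used were the authors' mean of each gene over all 6 libraries, read here as log2 CPM (read counts scaled to a common library size). That mean joins both lines in 1 number. No difference between the lines, no spread between libraries and no depth per library can be read from it. Each CPM value given below is 2 to the power of that mean. The scale is not corrected for transcript length, so a long transcript collects more reads than a short one at equal abundance. Places among all listed genes, and largest or smallest values, therefore refer to this scale only. They do not rank the genes by abundance.

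Matrix metalloproteases are zinc-dependent enzymes that cut collagens, laminins and other proteins of the extracellular matrix. They are made as inactive precursors, and some are anchored in the cell membrane while others are secreted. Adam proteases sit in the membrane and release the outer part of other membrane proteins, such as growth factors and receptors, whereas Adamts proteases are secreted and bind matrix through thrombospondin repeats. Timp proteins block the active site of matrix metalloproteases. Whether the Timp genes listed here also act on Adam or Adamts proteases was not tested. In vertebrate embryos Mmp, Adam and Adamts proteases take part in the migration of cells and in the sprouting of vessels. They also take part in the remodelling of the cardiac jelly between endocardium and myocardium.

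Of the 46 members, 24 (52.2%) had a mean of at least 0 log2 CPM, which is 1 CPM, against 73.9% of all listed genes. The median of all listed genes was 2.58 log2 CPM, with quartiles at -0.12 and 4.93. The members had a median of 0.69 log2 CPM, and 12 of them (26.1%) lay above the median of all listed genes. By the quartiles of all listed genes, 5 members lay above the upper quartile, 7 between it and the median, 13 between the median and the lower quartile, and 21 below the lower quartile. The summed level of all members was 534 CPM, or 0.0559% of the summed level of the table. These counts describe where the listed genes of the family lie on a scale that depends on length, and no test was made on them. A separate gene name list held 67 genes of the family. Of these, 15 matched no listed gene, so the counts do not cover the whole family.

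**Figure D1:**
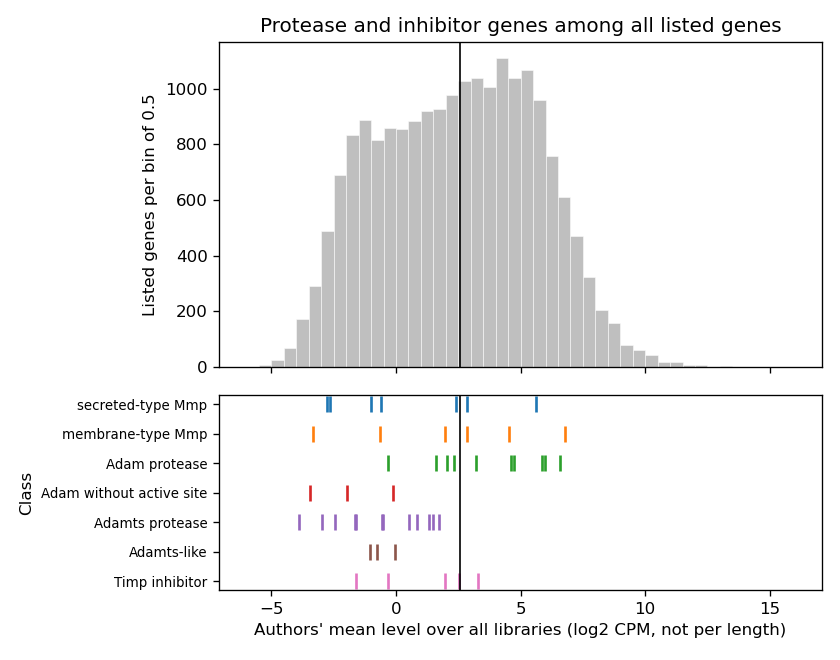
The upper panel counts all listed genes by the authors' mean level in log2 CPM, in bins of 0.5, and the lower panel marks each protease or inhibitor gene on the same axis, 1 row per class; the vertical line is the median of all listed genes, 2.58. The marks of the Adam proteases lie mostly around or right of the line, and those of the Adamts proteases all lie left of it.

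The membrane-type matrix metalloproteases comprised 6 genes, of which 4 had a mean of at least 0 log2 CPM. In mammals MMP14 cuts fibrillar collagen at the cell surface and activates the precursor of MMP2. The zebrafish copy mmp14b had 6.77 log2 CPM (109 CPM), above 91.6% of all listed genes, and the other copy mmp14a had 2.86 log2 CPM (7.26 CPM). Both copies of mmp15, a related membrane-bound protease, were also above 1 CPM. mmp15b had 4.52 log2 CPM (22.9 CPM) and mmp15a had 1.97 log2 CPM (3.92 CPM). mmp25, known in mammals as a lipid-anchored protease of leukocytes, was represented by mmp25a at -0.64 log2 CPM (0.640 CPM) and mmp25b at -3.35 log2 CPM (0.0983 CPM). Both mmp25 copies lay below the lower quartile of the table. Of the 4 myeloid markers over the same libraries, spi1b had 9.87, lcp1 5.86, coro1a 4.12 and mpx, a neutrophil enzyme, 1.34 log2 CPM.

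The other matrix metalloproteases comprised 7 genes, and 3 of them reached 0 log2 CPM. The gelatinases, which digest denatured collagen and collagen IV of basement membranes, were both among these. mmp2 had 5.60 log2 CPM (48.6 CPM), above 82.2% of all listed genes, and mmp9 had 2.41 log2 CPM (5.30 CPM), above 48.4%. The remaining gene over 1 CPM was mmp30, at 2.83 log2 CPM (7.13 CPM). Below 1 CPM were mmp11b at -0.61 log2 CPM and mmp11a at -2.64 log2 CPM, copies of a protease that furin activates inside the cell in mammals. mmp28, the zebrafish counterpart of epilysin, had -1.03 log2 CPM. mmp21, a gene needed for left-right asymmetry, had -2.78 log2 CPM (0.146 CPM). In number of genes this class was split, with 2 members over the median of all listed genes and 4 below the lower quartile.

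**Figure D2:**
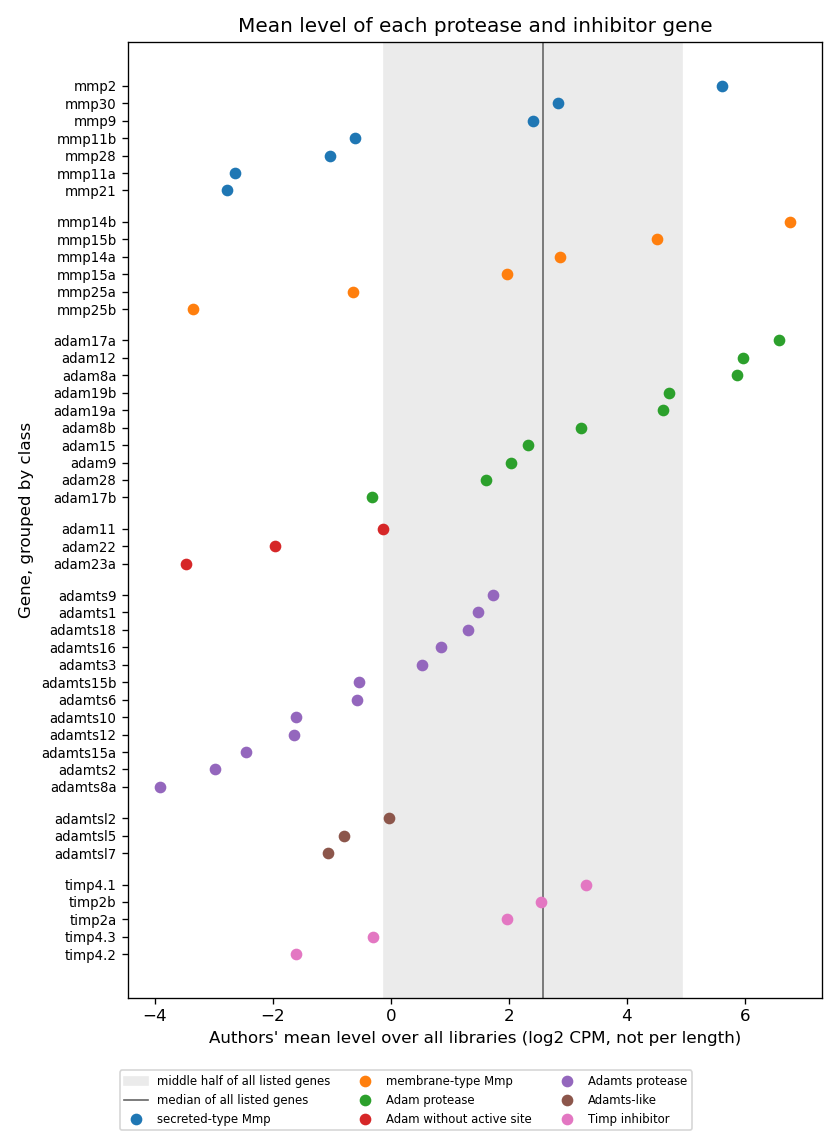
Each point is the authors' mean level of 1 gene over all 6 libraries in log2 CPM, not corrected for length, with genes grouped and coloured by class; the grey band spans the quartiles of all listed genes, -0.12 to 4.93, and the line is their median, 2.58. The points right of the band are mmp14b, adam17a, adam12, adam8a and mmp2, and no error bar is drawn because the mean has no spread attached.

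The Adam proteases with an active site, classed so by symbol, comprised 10 genes, and 9 of them had at least 0 log2 CPM. Whether each zebrafish protein holds that site was not tested. In this class 6 genes lay above the median of all listed genes. ADAM17 is the main enzyme that releases tumour necrosis factor and ligands of the EGF receptor in mammals. adam17a had 6.58 log2 CPM (95.4 CPM), above 90.4% of all listed genes, and adam17b had -0.32 log2 CPM (0.804 CPM), the only member of the class under 1 CPM. adam12, whose mammalian counterpart is found in muscle precursors and other mesenchyme, had 5.98 log2 CPM (62.9 CPM). adam8a had 5.86 log2 CPM (58.1 CPM) and adam8b had 3.22 log2 CPM (9.30 CPM), copies of a gene expressed by myeloid cells in mammals. All of these except adam17b lay above the median of the table.

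adam19, which in the mouse is needed for the formation of endocardial cushions, was present with both copies at like values on the CPM scale. adam19b had 4.72 log2 CPM (26.3 CPM) and adam19a had 4.62 log2 CPM (24.6 CPM), above 72.9% and 71.8% of all listed genes. adam15, an Adam of endothelial cells in mammals, had 2.32 log2 CPM (4.98 CPM), under the median of the table. adam9 had 2.03 log2 CPM and adam28 had 1.62 log2 CPM (3.08 CPM). These last 3 genes all lay between the lower quartile and the median.

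The 3 Adam genes whose mammalian counterparts lack an active site and act as receptors or adhesion proteins in the nervous system all lay under 1 CPM. adam11 had -0.13 log2 CPM (0.916 CPM), adam22 had -1.96 log2 CPM (0.258 CPM) and adam23a had -3.47 log2 CPM (0.0903 CPM). Among all listed genes, 1.46% had a lower mean than adam23a.

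Of the 12 Adamts proteases, 5 had at least 0 log2 CPM and 0 lay above the median of all listed genes. Of the genes over 1 CPM, adamts9 and adamts1 are counterparts of mammalian enzymes that can cut versican, the large proteoglycan of the cardiac jelly. The other Adamts genes, above or below 1 CPM, were not sorted by this activity. adamts9 had 1.72 log2 CPM (3.31 CPM) and adamts1 had 1.48 log2 CPM (2.78 CPM). Versican was listed as vcana at 2.25 log2 CPM (4.75 CPM) and vcanb at -0.40 log2 CPM (0.757 CPM). adamts18 had 1.31 log2 CPM and adamts16 had 0.85 log2 CPM. adamts3, which in mammals trims procollagen and takes part in the activation of the lymphatic growth factor VEGFC, had 0.53 log2 CPM (1.44 CPM). All 5 lay between the lower quartile and the median of the table.

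The other 7 Adamts genes lay below the lower quartile. adamts15b had -0.54 log2 CPM, adamts6 had -0.57 log2 CPM, and adamts10, linked in humans to fibrillin microfibrils, had -1.61 log2 CPM. adamts12 had -1.63 log2 CPM and adamts15a had -2.46 log2 CPM. adamts2, a procollagen-trimming enzyme, had -2.97 log2 CPM (0.128 CPM). adamts8a had -3.91 log2 CPM (0.0665 CPM), the lowest value of the 46 genes, with 0.624% of all listed genes below it. The lowest mean in the table was -5.49 log2 CPM. How many reads lie behind such a mean, and whether they came from 1 library or from several, was not analysed.

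The Adamts-like proteins, which share the matrix-binding repeats of Adamts proteases but have no protease domain, were all 3 under 1 CPM. adamtsl2 had -0.03 log2 CPM (0.981 CPM), adamtsl5 had -0.78 log2 CPM (0.581 CPM) and adamtsl7 had -1.05 log2 CPM (0.481 CPM).

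Of the 5 Timp inhibitors, 3 had at least 0 log2 CPM. timp4.1 had 3.30 log2 CPM (9.88 CPM), the only inhibitor gene above the median of all listed genes. It lay below the median of the listed genes with a symbol, 3.39 log2 CPM. timp2b had 2.55 log2 CPM (5.85 CPM) and timp2a had 1.98 log2 CPM (3.93 CPM). In mammals TIMP2 both inhibits matrix metalloproteases and forms the bridge by which MMP14 activates MMP2. The zebrafish genes of that trio, mmp14b, mmp14a, mmp2, timp2a and timp2b, all had means over 1 CPM, a level that 73.9% of all listed genes reached. Both timp2 copies lay below the median of all listed genes. Whether the proteins act together in these cells was not tested. timp4.3 had -0.31 log2 CPM (0.808 CPM) and timp4.2 had -1.61 log2 CPM (0.327 CPM). In the gene order of the assembly GRCz12tu, timp4.1, timp4.2 and timp4.3 follow each other with 0 protein-coding genes between them. Their sequences were not compared here, and whether the counting split reads between these copies was not tested. adamts8a and adamts15a were likewise direct neighbours, and both lay below the lower quartile, where 21 of the 46 members lay. mmp30 and mmp13a, the latter added by the gene name list, had 1 protein-coding gene between them. Both of these lay above the median of all listed genes.

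By summed level the Adam proteases with an active site held 290 CPM, which was 54.2% of the total of all members. The membrane-type matrix metalloproteases held 144 CPM (27.0%) and the other matrix metalloproteases 62.5 CPM (11.7%). The Timp inhibitors held 20.8 CPM (3.89%), the Adamts proteases 14.2 CPM (2.66%), the Adamts-like proteins 2.04 CPM (0.382%) and the Adam genes without an active site 1.26 CPM (0.237%). Single genes carried much of some sums, since mmp14b made up 75.8% of its class and mmp2 made up 77.8% of its own. The classes differ in number of genes and the sums were not corrected for transcript length, so they are not amounts of protein or of molecules.

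Copies marked a and b were listed for 9 genes. Both copies had at least 0 log2 CPM for 5 of them (adam8, adam19, mmp14, mmp15 and timp2), a single copy for 1 (adam17), and neither copy for 3 (adamts15, mmp11 and mmp25). Of all listed genes taken singly, 73.9% reached this level. The share among all a and b copies in the table was not analysed, so these counts are not read as a trait of the family.

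A list of 37 further genes covered activators, anchors, other inhibitors, related proteases and large proteoglycan substrates. Of the 37, 29 could be matched to a single row. Of these, 19 had at least 0 log2 CPM, a level reached by 73.9% of all listed genes. The median of the 29 genes was 1.76 log2 CPM, against 2.58 for all listed genes, and 12 of the 29 lay above the latter. The largest values were those of bsg (8.27 log2 CPM), a membrane protein that induces matrix metalloproteases in mammals, serpine2 (6.81 log2 CPM), an inhibitor of serine proteases, and rhbdf1a (6.20 log2 CPM). The last belongs to the iRhom proteins, which carry ADAM17 to the cell surface in mammals. Of the other iRhom genes, rhbdf1b had 1.76 log2 CPM (3.38 CPM), below the median of all listed genes, and rhbdf2 was not matched to a row. reck, a membrane-anchored inhibitor of matrix metalloproteases, had 4.29 log2 CPM (19.5 CPM). Of the furin-type proteases that cut the precursors, furina had 4.29 log2 CPM (19.6 CPM) and furinb had 2.05 log2 CPM (4.13 CPM). Among the related pcsk genes, pcsk7 had 4.85, pcsk5b 4.44 and pcsk6 -1.21 log2 CPM. The smallest values were those of ncanb (-4.23 log2 CPM), a brain proteoglycan, pcsk5a (-2.70 log2 CPM) and a2ml (-2.60 log2 CPM).

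**Figure D3:**
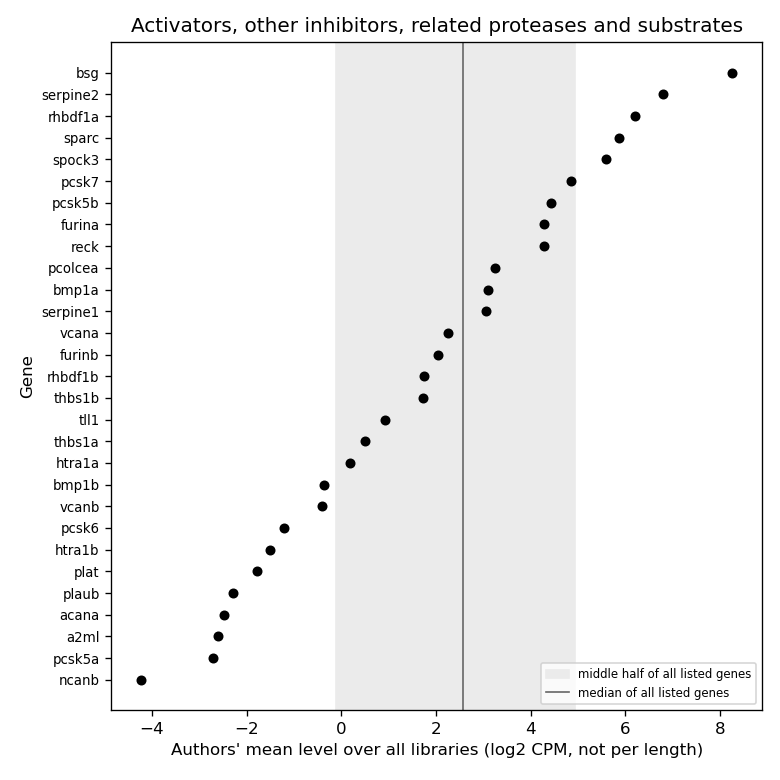
Each point is the authors' mean level in log2 CPM of 1 of the 29 matched further genes, not corrected for length. The list covers activators, anchors, other inhibitors, related proteases and large proteoglycan substrates. The grey band spans the quartiles of all listed genes and the line is their median, 2.58. bsg stands at 8.27 and ncanb at -4.23.

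The gene name list placed 6 further rows in the family, which the table gives without a symbol or under another one. Of these, mmp13a, a collagenase, had 4.01 log2 CPM (16.1 CPM), and adam9b, listed as zgc:174164, had 2.21 log2 CPM (4.64 CPM). ADAMTS7 had 0.25 log2 CPM, MMP23B had -1.34 log2 CPM, mmp23bb had -1.43 log2 CPM, and a second row named ADAM12 had -1.89 log2 CPM. Only mmp13a of these 6 lay above the median of all listed genes.

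Markers of several cell types had values among the pooled means. For reference, the median of all listed genes was 2.58 log2 CPM, and 73.9% of them had at least 0 log2 CPM. All 8 endothelial markers lay between 1.65 and 10.22 log2 CPM and all 4 endocardial markers between 4.50 and 9.55 log2 CPM. The 6 red blood markers lay between 1.37 and 7.13 log2 CPM, the 4 myeloid markers between 1.34 and 9.87, the 6 myocardial markers between 0.30 and 7.18, the 4 skeletal muscle markers between 1.27 and 6.57, the 3 epidermal markers between 7.20 and 10.67, and the 3 neural markers between 1.52 and 4.19 log2 CPM. Among the 6 genes listed as myocardial, the paper names myl7 and nkx2.5 for myocardial progenitors. These had 1.47 and 0.30 log2 CPM. Of the other genes of that list, gata5 had 7.18, tbx20 4.60, tnnt2a 4.01 and gata4 2.55 log2 CPM. Of 3 hatching gland markers, 2 could be matched to a single row, at 6.14 and 7.01 log2 CPM. Whether each marker is limited to the cell type it is listed for was not tested. The part of any cell type in the level of a protease gene was not tested either.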

How the data were processed

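RNA of GFP-positive cells (2 ng per library) was amplified with Smart-seq2. For the deposited values, the authors used Rsubread to align reads to GRCz11 and to obtain gene counts, and limma for the test between lines; versions, filter on low counts and normalisation are not given in the sources used here. The deposited table gives limma's mean log2 value of each gene over all libraries, used here as the authors' mean. Its header states no unit, and log2 CPM was inferred. Read so, the CPM values of all listed genes summed to 956297. The 7 other columns of values in the table hold the authors' own comparison of the lines (log2 fold change, its limits, test statistic, p-values and log-odds) and were not used. 0 columns held values per library, so no difference between the lines was tested and no depth, SD or interval is given.

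Means were turned into CPM, placed among all 19722 genes and summed by class. The gene name list matched 18622 identifiers and all 46 members; gene order came from the RefSeq list of GRCz12tu. Every member is named, and of the further genes the 3 with the largest and the 3 with the smallest means, plus reck, furins, pcsk genes, iRhom genes and versicans. Levels per kb of coding length, protein motifs and sequences were planned but not analysed here. The members and lists were chosen with earlier results of these data known. The functions for matching names and placing genes were checked on a short typed list of names and on a plain series of values. The steps for copies and gene order were not checked in this way. Python 3.11.15, numpy 2.4.6, pandas 2.3.3 and matplotlib 3.10.9 were used.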

Additional observations from a re-analysis of the deposited data

How the results depend on the processing

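The number of members above the median was 12 against all listed genes, 8 against the listed genes with a symbol (median 3.39 log2 CPM) and 8 against the genes of at least 0 log2 CPM (median 3.82 log2 CPM). The members above the first median but below both others were timp4.1, adam8b, mmp14a and mmp30. With the symbols of the gene name list the family held 52 rows in place of 46, and counting each symbol once left 46. Without the member of the largest CPM value in each class, the summed level was 194 CPM for the Adam proteases with an active site, 34.8 CPM for the membrane-type and 13.9 CPM for the other matrix metalloproteases, 10.9 CPM for the Adamts proteases, 10.9 CPM for the Timp inhibitors, 1.06 CPM for the Adamts-like proteins and 0.348 CPM for the Adam genes without an active site. The planned correction for length was not run, since no transcript or protein lengths were used here. No paired analysis was possible because no values per library were used, and for the same reason no library was left out. The number of reads behind the means under 1 CPM is unknown here.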
